A study of Mus musculus with 6 samples.

Results

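E0771 is a mouse mammary carcinoma line. The libraries described here are the 2 RNA sequencing libraries of E0771 cells that carry a control vector (Vector), out of 6 libraries in a series whose other groups express wild-type Malt1 or its PD mutant. As in the other groups, the Vector cells spent 12 hours with activated CD8 T cells, 3 for each tumour cell. After a wash and trypsin they were plated anew, and RNA was taken 6 hours later. The labels name neither the vector nor its promoter, and do not say whether the cells were 1 clone or whether the 2 libraries came from separate cultures. The spreads given below are between libraries and may come from the technique alone. Cells kept without T cells were not analysed here, so whether T cell contact moved these levels was not tested. The genes are the 16389 protein-coding genes among 28063 genes counted, and no other group enters any value.

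Levels are in TPM, for which each gene's count is divided by its length and the protein-coding genes of a library are scaled to the same fixed total, so that genes can be set against each other as shares of the transcripts. A gene was termed on at 1 TPM or more in both libraries, abundant at 100 TPM or more in both, and silent where it was not on and had 3 counts or fewer in each library. The remaining genes were termed intermediate. Where 2 values are given for a gene, the first is replicate 1 and the second replicate 2. By these rules 11000 genes (67.1%) were on, 2179 (13.3%) were intermediate and 3210 (19.6%) were silent, 1087 of them with 0 counts in both libraries. There were 8205 genes at 10 TPM or more in both libraries, 1717 at 100 TPM or more, and 116 at 1000 TPM or more. A count of 0 allows up to 3 counts, which is 0.167 CPM (counts scaled to the library total) in either library, or 0.139 and 0.151 TPM for a gene of the median length of 3988 nt. This floor covers counting error only.

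Mammary carcinoma cells descend from the epithelium of the gland, whose luminal and basal layers are told apart by their keratins and by lineage factors such as GATA3 and p63. Tumour cells that have moved towards a mesenchymal state lose E-cadherin and keratins and express vimentin and the SNAI, TWIST and ZEB factors. A CD8 T cell recognises a tumour cell by peptides on MHC class I, and answers with granzymes, death ligands and interferon-gamma, which the tumour cell reads through the interferon-gamma receptor and the JAK kinases.

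Genes that were on had more CpG dinucleotides in the 250 bases before their start than silent genes. CpGs are concentrated in the promoters of housekeeping genes, while many tissue-restricted genes start in CpG-poor sequence. RefSeq (GRCm38.p6) gives a single start for 10130 of the 16389 genes, of which 90.3% lie within 1000 bases of the 5′ end of the gene in GENCODE release M21. The median number of CpGs was 17 over the 6901 genes on, 6 over the 1257 intermediate and 4 over the 1972 silent genes, against 14 over all 10130. Of the promoters with no CpG, 20.4% belonged to genes that were on, as did 28.2% of those with 1 to 4, 59.7% of those with 5 to 9, 81.7% of those with 10 to 19 and 85.0% of those with 20 or more. The 1146 abundant genes had a median of 18 and the 67 genes at 1000 TPM or more a median of 15. These are descriptions of the 2 libraries, with no test.

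The next 7 promoters show both ends of that range, with CpGs in capitals and each read 5′ to 3′ on the strand of the gene. They stand for signalling genes that were on from CpG-rich sequence (Mavs, the adaptor of the RIG-I-like RNA sensors, and Ifngr1, a chain of the interferon-gamma receptor) and abundant genes with fewer CpGs (B2m, the light chain of MHC class I, and C3, the central complement protein). Ldhb, the heart form of lactate dehydrogenase, and Tgfa, a ligand of the EGF receptor, were silent with CpG-rich promoters, and Cd3d, a chain of the T cell receptor complex, was silent with none.
Mavs, chr2:131233813-131234062, plus strand, 15 CpGs: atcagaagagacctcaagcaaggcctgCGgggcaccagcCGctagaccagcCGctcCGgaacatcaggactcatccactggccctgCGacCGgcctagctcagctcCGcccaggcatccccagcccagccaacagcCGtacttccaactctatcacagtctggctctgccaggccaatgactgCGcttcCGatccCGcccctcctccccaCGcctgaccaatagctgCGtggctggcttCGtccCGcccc
Ifngr1, chr10:19591699-19591948, plus strand, 11 CpGs: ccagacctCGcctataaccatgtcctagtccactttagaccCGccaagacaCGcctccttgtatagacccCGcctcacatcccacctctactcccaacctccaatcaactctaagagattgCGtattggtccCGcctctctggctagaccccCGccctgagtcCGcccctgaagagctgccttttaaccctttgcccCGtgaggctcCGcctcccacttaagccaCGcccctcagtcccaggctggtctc
B2m, chr2:122147437-122147686, plus strand, 8 CpGs: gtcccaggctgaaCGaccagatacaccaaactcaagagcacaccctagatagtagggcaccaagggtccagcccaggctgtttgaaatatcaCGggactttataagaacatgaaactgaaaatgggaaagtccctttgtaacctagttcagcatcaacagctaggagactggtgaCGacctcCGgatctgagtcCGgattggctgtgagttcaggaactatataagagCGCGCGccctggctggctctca
C3, chr17:57228137-57228386, minus strand, 1 CpG: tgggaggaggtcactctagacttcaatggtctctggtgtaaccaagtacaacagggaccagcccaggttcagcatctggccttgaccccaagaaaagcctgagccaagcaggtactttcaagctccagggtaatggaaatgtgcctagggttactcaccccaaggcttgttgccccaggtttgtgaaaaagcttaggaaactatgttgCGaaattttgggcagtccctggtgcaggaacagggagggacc
Ldhb, chr6:142507958-142508207, minus strand, 14 CpGs: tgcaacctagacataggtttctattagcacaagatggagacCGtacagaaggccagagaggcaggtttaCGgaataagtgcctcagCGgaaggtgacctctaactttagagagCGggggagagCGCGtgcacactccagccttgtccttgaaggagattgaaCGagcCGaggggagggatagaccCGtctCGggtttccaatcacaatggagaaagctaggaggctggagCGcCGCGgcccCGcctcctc
Tgfa, chr6:86194972-86195221, plus strand, 19 CpGs: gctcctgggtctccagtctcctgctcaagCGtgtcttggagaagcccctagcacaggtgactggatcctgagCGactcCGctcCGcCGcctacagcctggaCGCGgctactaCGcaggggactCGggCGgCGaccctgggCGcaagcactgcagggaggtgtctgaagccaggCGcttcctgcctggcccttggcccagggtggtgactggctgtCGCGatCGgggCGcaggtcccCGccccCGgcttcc
Cd3d, chr9:44981536-44981785, plus strand, 0 CpGs: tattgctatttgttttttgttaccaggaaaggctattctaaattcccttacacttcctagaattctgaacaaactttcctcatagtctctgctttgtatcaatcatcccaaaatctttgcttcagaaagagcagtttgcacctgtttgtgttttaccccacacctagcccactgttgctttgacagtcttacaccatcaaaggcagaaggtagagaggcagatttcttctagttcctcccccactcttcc
Mavs stood at 61.5 and 70.7 TPM, Ifngr1 at 28.8 and 25.8 TPM, B2m at 2123 and 2035 TPM and C3 at 143 and 214 TPM. Ldhb had 1 and 1 counts, Tgfa 0 and 0 counts and Cd3d 1 and 1 counts. A CpG-rich start was thus found among silent genes too, as 30.9% of silent genes had 10 or more CpGs against 78.1% of genes on. The letters TATAAA, searched on both strands, were in the window of 6.09% of genes on, 14.1% of silent genes and 8.26% of all matched genes, and in that of B2m among the promoters printed. GGGCGG, searched in the same way, was in 62.8% of genes on, 32.0% of silent genes and 53.8% of all, Mavs, Ifngr1 and Tgfa among them. CCAAT differed least, at 38.0%, 34.6% and 36.8%, and was found for Mavs, Ifngr1, B2m and Ldhb. A match describes the letters only.

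The libraries held 17929408 and 17994769 counts, with 98.0% and 98.3% on protein-coding genes, so 1 TPM corresponds to 21.6 and 19.9 counts for a gene of median length. At least 1 count was found for 14488 and 14432 protein-coding genes. The counts differed by more than sampling noise (chi-square per degree of freedom 28.0 over 11615 genes), so they are not 1 library deposited again. Over the genes on, levels differed by more than 1.5-fold between the libraries for 1029 (9.35%) and by more than 2-fold for 163 (1.48%). The difference followed gene length. The median log2 ratio of replicate 2 to replicate 1 went from -0.16 in the tenth of shortest genes to 0.45 in the tenth of longest, which is 0.893 to 1.36 as a ratio. Hspg2, which encodes the basement membrane proteoglycan perlecan and is 14307 nt long, stood at 146 and 341 TPM, and Mki67, the proliferation marker, at 10061 nt, stood at 39.4 and 91.3 TPM. Levels of genes longer than about 9672 nt are therefore less certain than those of short genes, and what sets the libraries apart was not tested.

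**Figure D1:**
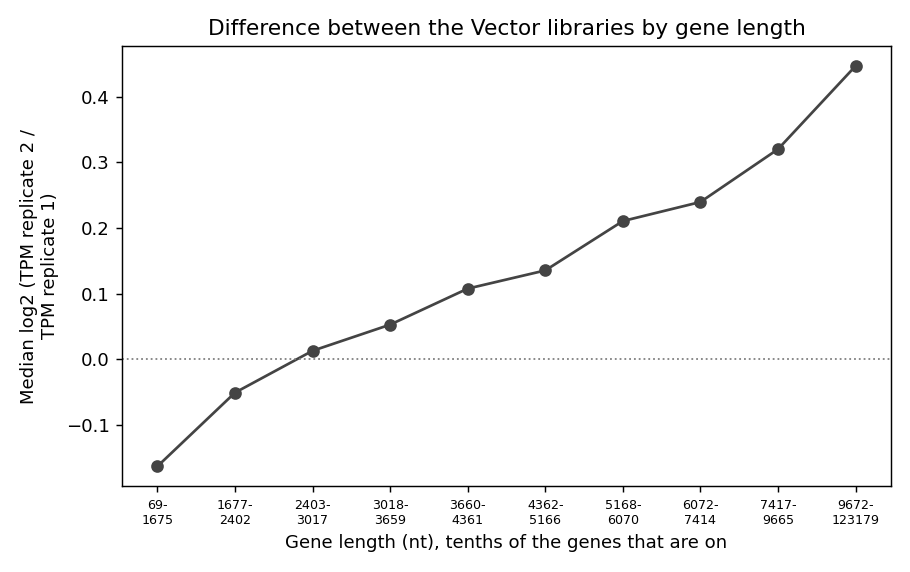
Median log2 ratio of the level in Vector replicate 2 to that in replicate 1 (vertical axis), for the genes on in 10 classes of gene length in nt (horizontal axis, shortest at the left, about 1100 genes in each class). The median goes up with every class, from -0.16 to 0.45, and crosses 0 between the classes of 1677 to 2402 nt and 2403 to 3017 nt.

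The 4 genes given as markers of these cells were all on. Lcn2 (ENSMUSG00000026822.14, chromosome 2, 32384633 to 32388252, minus strand), which encodes lipocalin 2, an iron-siderophore binding protein of the innate response, had 5352 and 5042 counts and stood at 377 and 385 TPM. C3 (ENSMUSG00000024164.15, chromosome 17, 57203970 to 57228136, minus strand) stood at 143 and 214 TPM, higher in replicate 2, with 3976 and 5489 counts. Fabp4 (ENSMUSG00000062515.3, chromosome 3, 10204088 to 10208576, minus strand), the fatty acid binding protein of adipocytes and macrophages, stood at 193 and 160.5 TPM. Mmp2 (ENSMUSG00000031740.8, chromosome 8, 92827291 to 92853420, plus strand), a secreted gelatinase, stood at 73.2 and 88.6 TPM. As means, Lcn2 was at 381 ± 5.58 TPM, C3 at 178 ± 50.1 TPM, Fabp4 at 177 ± 23.3 TPM and Mmp2 at 80.9 ± 10.9 TPM (SD, n = 2), so that Lcn2 led and the levels of C3 and Fabp4 differed by less than the spread of C3. Lcn2 ranked 355 of 16389 genes, C3 925, Fabp4 932 and Mmp2 2354. Coordinates are those of GENCODE M21 on GRCm38, as for every gene here. The deposited lengths of Lcn2 (2623 nt) and Fabp4 (4489 nt) hold every exon of every transcript. With the longest single transcript, 915 and 896 nt, the mean level was 756 TPM for Lcn2 and 613 TPM for Fabp4. That of C3 was then 124 TPM, though its own length hardly changed (5143 to 5136 nt). The new lengths rescale every gene to the same total, and B2m, at 860 nt either way, went from 2079 to 1438 TPM. So C3 and Fabp4 were near each other with the deposited lengths but not with these.

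The families of the markers were on in part. Among 10 fatty acid binding protein genes, 8 had a row and 3 were on (37.5%, against 67.1% of all protein-coding genes). Fabp4 was far above the next members, Fabp6 at 2.32 and 7.53 TPM and Fabp3 at 2.47 and 2.92 TPM. Fabp5, the epidermal form, had 6 and 0 counts. Of 28 metalloproteinase and inhibitor genes, 22 had a row and 11 were on. The inhibitors led, with Timp1 at 408 and 338 TPM and Timp2 at 316 and 369 TPM, while Timp3 had 0 and 0 counts and Timp4 2 and 0 counts. Mmp14, the membrane protease that activates pro-MMP2, stood at 89.2 and 93.7 TPM, close to Mmp2. Stromelysins followed, with Mmp11 at 43.5 and 51.4 TPM and Mmp3 at 43.5 and 40.9 TPM, then the other gelatinase, Mmp9, at 24.2 and 28.7 TPM. Mmp7, the epithelial matrilysin, had 0 and 0 counts.

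The transcriptome was concentrated in few genes. The most abundant gene took 2.30% and 2.41% of all TPM, the 10 most abundant 10.2% and 9.98%, and the 25 most abundant 16.6% and 15.8%. The 50% mark was reached with 404 genes in replicate 1 and 499 in replicate 2. Of the 25 most abundant genes of replicate 1, 24 were among the 25 of replicate 2.

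**Figure D2:**
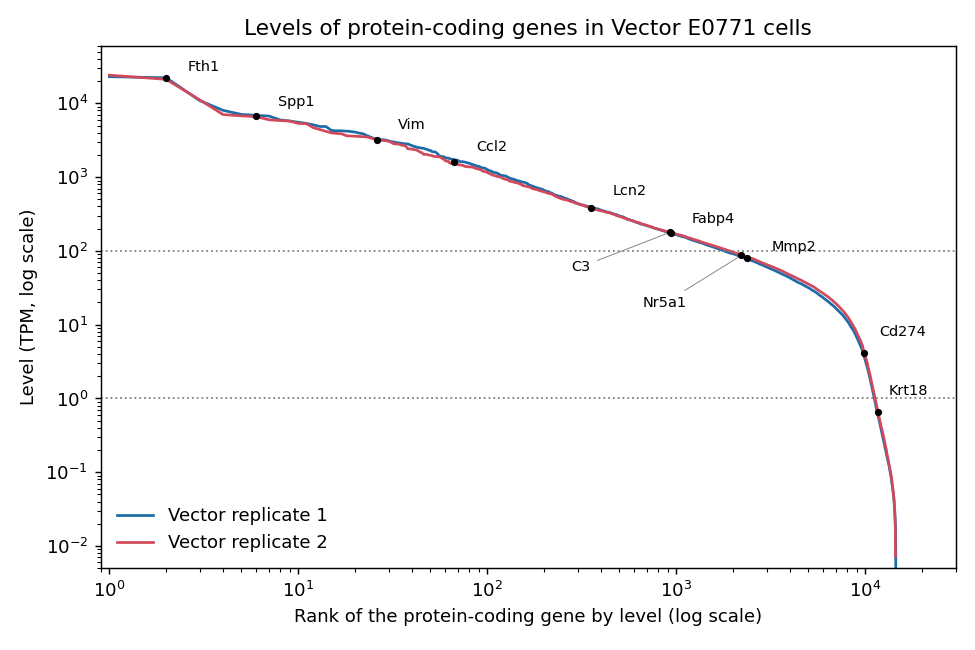
Level of every protein-coding gene in TPM (vertical log axis) against its rank (horizontal log axis) in Vector replicates 1 and 2, drawn as lines, with named genes as points at their mean level and rank. The lines nearly coincide. Dotted lines mark 1 and 100 TPM, and the curve drops steeply after about rank 11000, the number of genes on.

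Among the 25, by mean level, were 5 mitochondrially encoded genes of the respiratory chain, 8 ribosomal protein genes and a pair of elongation factors. The highest was mt-Co1, a subunit of cytochrome c oxidase, at 22212 and 24103 TPM. Fth1, the ferritin heavy chain that stores iron, was second at 22992 and 21138 TPM, with its partner Ftl1, the light chain, at 1319 and 1269 TPM. Eef1a1, which carries aminoacyl-tRNA to the ribosome, stood at 10946 and 11194 TPM. The tissue-restricted paralogue Eef1a2 had 1 and 1 counts. Spp1, which encodes osteopontin, a secreted integrin ligand of bone matrix and inflamed tissue, stood sixth at 6865 and 6771 TPM. Gapdh stood at 5759 and 5840.2 TPM and Ldha, the muscle form of lactate dehydrogenase, at 4282 and 3967 TPM. The chaperone Hsp90ab1 stood at 5549 and 5767 TPM. Lgals1, the secreted lectin galectin-1, stood at 4147 and 3508 TPM. Ifitm3, an interferon-inducible membrane protein that restricts viral entry, stood at 4071 and 3534 TPM. Mif, the macrophage migration inhibitory factor, closed the 25 at 3497 and 3303 TPM. The order within the 25 depends on the length used, as the mean level of Fth1 was 8843 TPM and that of Gapdh 11670 TPM with the longest single transcript as length. Rplp1, a protein of the ribosomal stalk, differed most between the libraries among these 8 ribosomal genes, at 8033 and 5987 TPM.

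**Figure D3:**
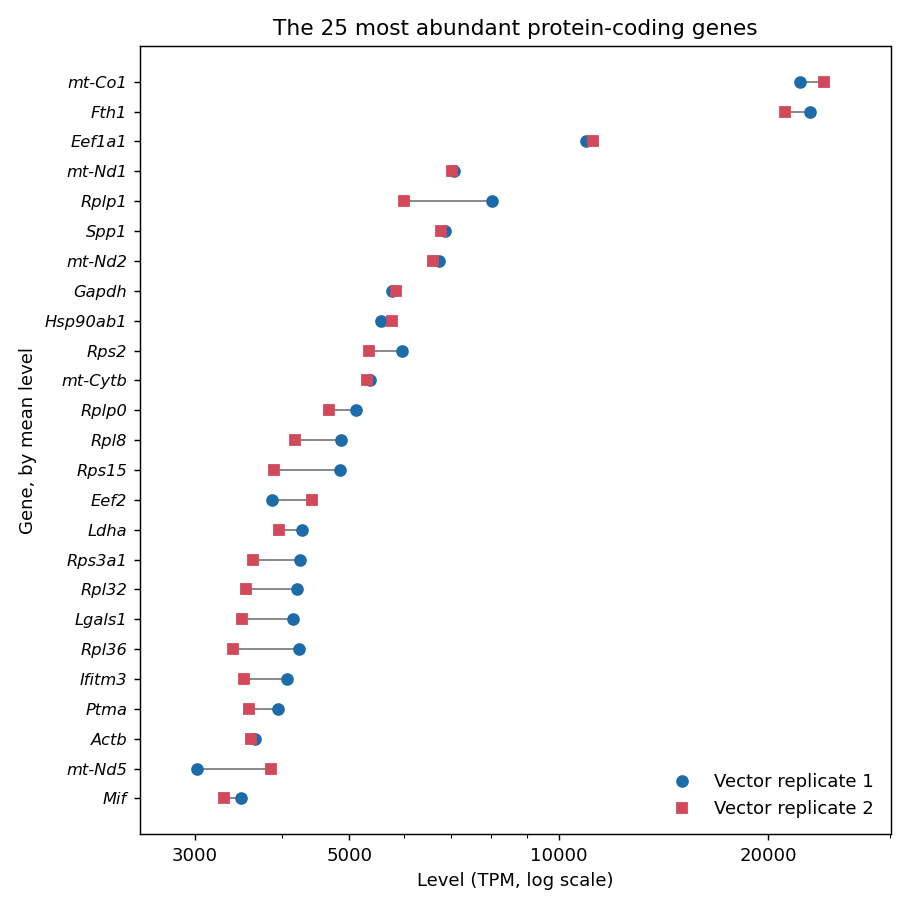
Levels in TPM (horizontal log axis) of the 25 protein-coding genes with the highest mean over the Vector libraries (vertical axis), with a circle for replicate 1, a square for replicate 2 and a line between them. The means of mt-Co1 (23157 TPM) and Fth1 (22065 TPM) lie highest, followed by Eef1a1, and the means of the others run from 7057 TPM for mt-Nd1 down to 3399.9 TPM for Mif.

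Grouped by function, the 86 rows of cytosolic ribosomal proteins took 14.0% and 11.75% of TPM, the 13 mitochondrial genes 5.19% and 5.47%, 21 translation factors 2.92% and 2.95%, 32 glycolytic genes 2.59% and 2.55%, and 36 actin, tubulin and filament genes 2.39% and 2.30%. Of the ribosomal rows 84 were on. Rps10 at 14.9 and 14.0 TPM and Rpl24 at 3.59 and 2.53 TPM were among the lowest of their kind, and ribosomal protein genes have many processed copies in the genome, so counting could split their reads. Glycolysis was expressed along its length, from Slc2a1, the glucose transporter, at 309.6 and 336 TPM and Hk2 at 98.9 and 111 TPM to Pkm at 2465 and 2412 TPM and the lactate exporter Slc16a3 at 486 and 517 TPM. Isoforms were far apart at lactate dehydrogenase, where Ldha was among the 25 and Ldhb had 1 and 1 counts.

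Growth genes were widely on, at 30 of the 31 listed with a row (96.8%, against 67.1% of all protein-coding genes). Myc, the growth-promoting transcription factor, led at 636 and 684 TPM. Ccnd1, cyclin D1, stood at 177 and 211 TPM and Cdk4 at 405 and 376 TPM. The tumour suppressor Trp53 stood at 186 and 198 TPM with its target Cdkn1a, the inhibitor p21, at 263 and 248 TPM, and Mdm2 at 63.7 and 69.0 TPM. Cdkn2a, Cdkn2b and Mycn had no row and were not analysed here.

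More of the mesenchymal markers than of the epithelial markers were on, read against 67.1% on and a median of 11.3 TPM over all protein-coding genes. Shares here are of the listed genes with a row. Of 23 luminal markers 22 had a row and 6 were on (27.3%, median 0.334 TPM). Of 17 basal and myoepithelial markers 14 had a row and 3 were on (21.4%, median 0.389 TPM). Of 30 mesenchymal and matrix genes 27 had a row and 22 were on (81.5%, median 62.6 TPM). Krt8, a keratin of simple epithelia, stood at 208 and 205 TPM. Krt18, the keratin that pairs with it, had only 6 and 4 counts, or 0.772 and 0.558 TPM, and whether reads of Krt18 were lost to its copies was not tested. Krt19 had 4 and 5 counts. Epcam, the epithelial adhesion molecule, stood at 11.2 and 10.0 TPM, Elf3, an epithelial ETS factor, at 13.9 and 14.3 TPM, Erbb3 at 10.1 and 12.1 TPM and Foxa1, a pioneer factor of the luminal lineage, at 5.33 and 8.13 TPM. Cdh1, which encodes E-cadherin, had 8 and 4 counts. Gata3, the factor that maintains luminal identity, had 1 and 2 counts, Kit 1 and 1 counts, Prlr, the prolactin receptor, 1 and 0 counts and Elf5, the alveolar factor, 0 and 0 counts. The tight-junction genes Cldn3, Cldn4 and Cldn7 had 1 and 0 counts, 2 and 0 counts and 3 and 3 counts. Esr1, the estrogen receptor, was intermediate at 0.325 and 0.499 TPM.

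The basal layer was represented by little. Acta2, smooth muscle actin, stood at 65.0 and 64.6 TPM, Krt17 at 2.50 and 4.13 TPM and Trp63, the basal factor p63, at 1.52 and 2.39 TPM. Krt14 had 6 and 1 counts and Tagln, another gene of smooth muscle, 3 and 2 counts. Krt5, Krt15 and Krt6a had no row and were not analysed here. Of 10 milk protein genes 7 had no row, and Csn3, a casein, had 0 and 0 counts. The exception was Xdh, xanthine oxidoreductase, an enzyme of purine breakdown that also coats milk fat droplets, at 96.7 and 135 TPM.

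On the mesenchymal side, Vim, the intermediate filament vimentin, stood at 3217 and 3179 TPM and Sparc, a matrix glycoprotein, at 568 and 604 TPM. The listed transcription factors of the mesenchymal state that had a row were all on. Twist1, a basic helix-loop-helix factor, stood at 265 and 255 TPM. Snai1, a zinc finger repressor of E-cadherin, stood at 182 and 207 TPM. Lower were Prrx1 at 72.2 and 84.0 TPM, the pair Zeb1 at 18.98 and 29.3 TPM and Zeb2 at 20.2 and 28.2 TPM, and Snai2 at 5.58 and 8.72 TPM. Cdh11, a cadherin on the mesenchymal list, was not on, with a mean of 0.173 TPM. The listed factor Tcf21 had no row, nor did Cdh2, N-cadherin, and Thy1, and they were not analysed here. Matrix genes were selective. Fn1, fibronectin, had 2 and 1 counts and Postn, periostin, 1 and 0 counts, and Lum, with a mean of 0.353 TPM, was not on either. Among 42 collagen genes with a row 15 were on (35.7%, against 67.1% of all protein-coding genes). Of the 42, 9 were abundant, a higher share than over all protein-coding genes (1717 of 16389). Col6a1 of collagen VI was highest at 468 and 587 TPM. Its partners Col6a3 at 209.5 and 385 TPM and Col6a2 at 121 and 158 TPM were abundant too. The basement membrane chains Col4a1 at 226 and 296 TPM and Col4a2 at 139 and 186 TPM were both abundant. Collagen I was uneven, as Col1a1 stood at 15.5 and 19.8 TPM while Col1a2, its partner in the trimer, had 3 and 12 counts. Collagen V likewise had Col5a1 at 215 and 285 TPM and Col5a2 with 8 and 2 counts.

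**Figure D4:**
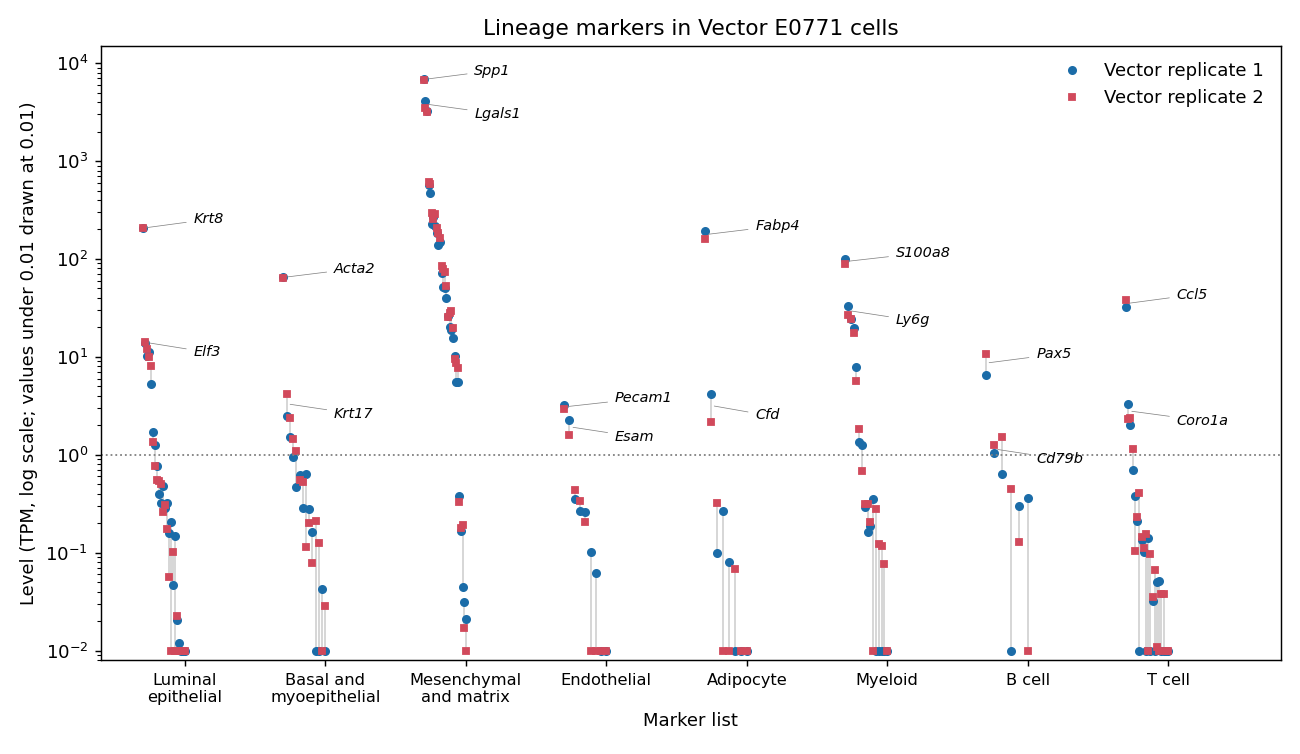
Level in TPM (vertical log axis) of each gene with a row in 8 lists of lineage markers (horizontal axis, ordered within a list by mean level), with circles for Vector replicate 1 and squares for replicate 2. The dotted line marks 1 TPM. The mesenchymal list alone has most of its genes above the line, and Krt8, Acta2, Fabp4, S100a8, Ccl5 and Pax5 lead their lists.

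Markers of other cell types were checked as lists. Of 28 T cell markers, 20 had a protein-coding row and 3 were on (15.0%, against 67.1% of all protein-coding genes). The list summed to 39.1 and 45.3 TPM. Most of that was Ccl5, a chemokine that other cells also make, at 32.0 and 38.0 TPM. Coro1a, a coronin of haematopoietic cells, stood at 3.32 and 2.30 TPM and Lck, the T cell kinase, at 2.02 and 2.39 TPM. The genes that define a CD8 T cell were at the floor, as Cd3d, Cd3g, Cd8a, Cd8b1, Zap70, Prf1 (perforin) and Ifng each had between 0 and 3 counts in a library. Cd3g was at 0 in both. Of the T cell receptor constant genes, which have a gene type of their own, Trac had 3 and 1 counts and Trbc2 0 and 0, while Trdc, of the delta chain, had 29 and 13 counts. Cd3e, Gzmb and Gzma had no row and were not analysed here.

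Of 18 myeloid markers 16 had a row and 6 were on (37.5%). The shares in this paragraph are of listed genes with a row, read against 67.1% of all protein-coding genes. S100a8, a calcium-binding alarmin of neutrophils, stood at 99.1 and 88.9 TPM, but S100a9, with which it forms calprotectin, had 1 and 0 counts. Ly6g, a surface protein of neutrophils, stood at 33.0 and 26.6 TPM, Cd14, the co-receptor for lipopolysaccharide, at 24.2 and 24.2 TPM and Cd68, a lysosomal protein, at 19.9 and 17.7 TPM. The macrophage genes Csf1r with 5 and 5 counts, Adgre1 with 0 and 2 counts and Fcgr1 with 0 and 1 counts were near the floor. Pax5, the factor of B cell commitment, stood at 6.49 and 10.8 TPM. Of 9 B cell markers 6 had a row and 2 were on (33.3%), Pax5 and Cd79b. Cd79b, a chain of the B cell receptor complex, had 8 and 9 counts, near the limit, and its partner Cd79a had 5 and 11 counts and was intermediate. Of 12 adipocyte markers, Fabp4 and Cfd, the protease adipsin at 4.21 and 2.17 TPM, were on, while Pparg, the factor of adipocyte fate, had 0 and 1 counts, Adipoq 2 and 0 counts and Plin1 2 and 0 counts. Of 10 endothelial markers 9 had a row and 2 were on (22.2%), Pecam1 at 3.24 and 2.93 TPM and Esam at 2.26 and 1.61 TPM. Tek and Erg had 0 counts. The part of other cells in any of these levels was not tested.

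Among nuclear receptors, ligand-activated transcription factors, 42 of 49 listed genes had a row. Of these 24 were on (57.1%, against 67.1% of all protein-coding genes) and 16 silent. By the deposited lengths the highest was Nr5a1 (ENSMUSG00000026751.14, chromosome 2, 38692656 to 38714542, minus strand), steroidogenic factor 1 of the adrenal and gonad, at 87.1 and 86.3 TPM. With the longest transcript as length the means of Nr1h2, 93.9 TPM, and Ppard, 87.98 TPM, passed that of Nr5a1, 84.9 TPM. The anti-Müllerian hormone receptor Amhr2, another gene of the gonads, stood at 14.2 and 14.6 TPM. Also on were Nr1h2, the oxysterol receptor LXR beta, at 76.5 and 85.3 TPM, Rxrb, the shared partner of many nuclear receptors, at 67.1 and 74.1 TPM, Ppard at 50.8 and 60.1 TPM and the retinoic acid receptors Rarg at 43.1 and 45.8 TPM and Rara at 41.4 and 46.7 TPM. Nr3c1, the glucocorticoid receptor, stood at 31.7 and 41.9 TPM and Vdr, the vitamin D receptor, at 5.04 and 6.56 TPM. Of the hormone receptors of mammary tissue, Esr1 was intermediate, Esr2 had 3 and 0 counts, and Pgr had no row and was not analysed here.

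Of 58 receptor tyrosine kinases 48 had a row and 26 were on (54.2%, against 67.1% of all protein-coding genes). Axl, a TAM receptor that binds GAS6, was highest at 357 and 409.8 TPM. The collagen receptors Ddr1 at 114 and 132 TPM and Ddr2 at 65.8 and 104 TPM and the ephrin receptor Epha2 at 95.2 and 113 TPM came below it, with Ryk, a Wnt co-receptor, among them at 97.1 and 97.1 TPM. Fgfr1 stood at 70.3 and 77.9 TPM, Met, the receptor of hepatocyte growth factor, at 54.5 and 77.0 TPM, Pdgfrb at 51.0 and 74.2 TPM and Pdgfra at 40.2 and 52.5 TPM. Within the ERBB family Erbb2 stood at 25.8 and 32.5 TPM, above Erbb3, while Egfr was intermediate at 0.947 and 1.45 TPM and Erbb4 had no row. Of the EGF receptor ligands, Areg, amphiregulin, at 198 and 189 TPM and Ereg, epiregulin, at 124 and 139 TPM were abundant. Hbegf stood at 48.9 and 48.8 TPM and Btc at 13.9 and 13.6 TPM, while Tgfa had 0 and 0 counts and Egf was intermediate. Fgfr2 had 1 and 0 counts and Flt3 0 and 0 counts.

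Other receptor families differed in the share of genes with a row that was on, read against 67.1% of all protein-coding genes. Of 14 TGF-beta superfamily receptors 12 were on (85.7%). Eng stood at 71.8 and 88.5 TPM, Tgfbr1 at 16.8 and 18.9 TPM and Tgfbr2 at 8.88 and 9.84 TPM, and Bmpr1b had 0 and 0 counts. Of 26 integrin subunits 24 had a row and 16 were on (66.7%, near the share over all genes). They were led by Itgb1 at 611 and 677 TPM and its partner in the fibronectin receptor, Itga5, at 160.3 and 194 TPM. Itgb6, an epithelial subunit, had 0 and 0 counts. Of 23 chemokine receptors 17 had a row, with 4 on (23.5%) and 11 silent. Ackr3, a scavenging receptor, at 102 and 102 TPM stood far above Ccr10 at 2.04 and 3.02 TPM.

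The immune genes in 15 lists numbered 456 when each is counted once. A protein-coding row was found for 393, of which 249 (63.4%) were on, 58 intermediate and 86 silent, near the 67.1% on among all protein-coding genes. Of the rest, 57 had no row and 6 a row of another type. Of the 393, 44 were at 100 TPM or more in both libraries, a share similar to that of all protein-coding genes (1717 of 16389). The lists differed widely in how much of them was on, from 21 of 22 genes of interferon receptors and signalling to 4 of 23 chemokine receptors.

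**Figure D5:**
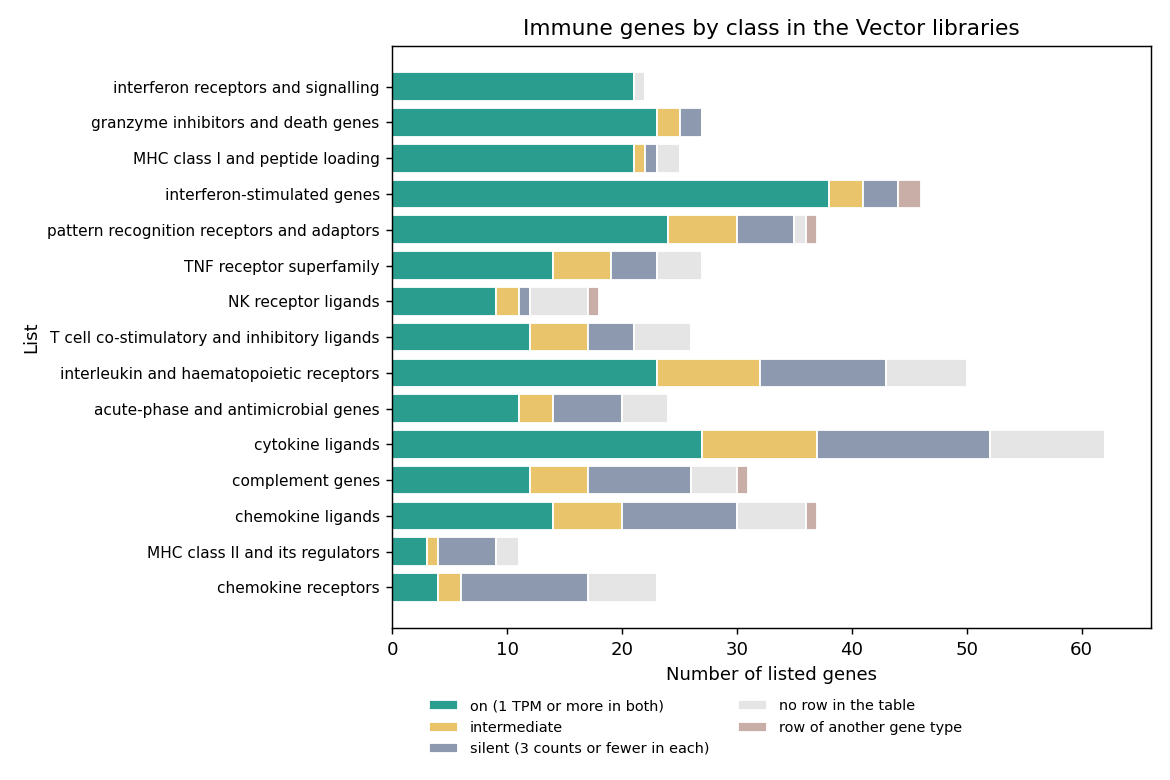
Number of listed genes (horizontal axis) in each of 15 immune lists (vertical axis, ordered by the share of the list that was on), split by class in the Vector libraries. Bars start at 0. Interferon signalling, death genes, MHC class I and interferon-stimulated genes are mostly on, and the lists of MHC class II and chemokine receptors are mostly silent or have no row.

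All 21 genes with a row on the list of interferon receptors and signalling were on. The receptor chains Ifngr1 at 28.8 and 25.8 TPM, Ifngr2 at 39.4 and 39.1 TPM, Ifnar1 at 23.8 and 29.2 TPM and Ifnar2 at 15.8 and 15.4 TPM cover both interferon types. Of the kinases Jak1 stood at 129.6 and 170.0 TPM, Jak2 at 16.8 and 22.3 TPM and Tyk2 at 12.8 and 17.3 TPM. Of the STAT factors, Stat3 stood at 104 and 129 TPM and Stat2 at 34.9 and 43.6 TPM. Irf1, a factor induced by interferon-gamma, stood at 53.4 and 52.7 TPM. The feedback inhibitor Socs3 was highest of the list at 318 and 344 TPM, and Socs1 stood at 19.3 and 17.9 TPM.

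Of 46 interferon-stimulated genes 44 had a row and 38 were on (86.4%, against 67.1% of all protein-coding genes, median 27.9 TPM). High among them were Ifitm3, Bst2, which tethers virus particles, at 895 and 736 TPM, and Isg15, a ubiquitin-like modifier, at 291 and 245 TPM. Mx1, a GTPase against viruses, stood at 1.95 and 2.01 TPM, and the lowest mean of the 38 was that of Ifit3b, at 2.22 and 1.10 TPM. Ifit1 stood at 47.2 and 47.8 TPM, Rsad2 at 43.2 and 45.8 TPM and the interferon-gamma target Gbp2 at 37.5 and 43.0 TPM. Ido1, the tryptophan-degrading enzyme that interferon-gamma strongly induces in many cells, had 1 and 0 counts, and Ifi44l 1 and 0 counts. Cxcl9 had 10 counts in replicate 1 and 0 in replicate 2, so the libraries differ on it. Of the ligands themselves, Ifng had 1 and 0 counts, and Ifnb1 had 7 and 0 counts and was intermediate.

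Antigen presentation by MHC class I was on at 21 of 25 genes (median 68.8 TPM over the 23 with a row), and that by class II at 3 of 11. Of the genes with a row these are 91.3% and 33.3%, against 67.1% of all protein-coding genes. The class I heavy chain genes H2-Q4 with 8 and 2 counts and H2-Q6 with 0 and 1 counts were not on. B2m stood at 2079 ± 62.6 TPM (SD, n = 2). The heavy chain H2-D1 stood at 920.5 and 839 TPM and H2-K1 at 132 and 121 TPM, a ratio of 6.97 and 6.96 within each library, or 5.31 and 5.30 with the longest transcript as length. The heavy chains are near-identical over long stretches, so counting could move reads between them. Of the loading machinery Tap1 stood at 48.5 and 51.7 TPM, Tap2 at 74.3 and 68.9 TPM and Tapbp, tapasin, at 171 and 161 TPM. The immunoproteasome subunits Psmb8 at 90.3 and 78.1 TPM, Psmb10 at 73.2 and 61.6 TPM and Psmb9 at 9.85 and 9.97 TPM were on, and Nlrc5, the transactivator of class I, stood at 15.0 and 24.5 TPM. The classical class II chains H2-Aa with 1 and 0 counts, H2-Ab1 with 1 and 0 counts and H2-Eb1 with 1 and 2 counts were silent, and Ciita, the transactivator of class II, had 11 and 3 counts. The class II peptide editors H2-DMa at 33.2 and 28.8 TPM and H2-DMb1 at 35.6 and 30.9 TPM were on without them.

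Of 26 ligands of T cell receptors and their checkpoints 21 had a row and 12 were on (57.1%, against 67.1% of all protein-coding genes). Cd274, PD-L1, which inhibits T cells through PD-1, was on at 3.83 and 4.31 TPM, with 75 and 78 counts, near the lower end of the genes on. Higher were Lgals3, galectin-3, at 1035 and 909 TPM, Lgals9, a ligand of TIM-3, at 173 and 172 TPM and Cd47, the signal against phagocytosis, at 106 and 106 TPM. The nectins bind TIGIT and DNAM-1, and Nectin2 stood at 100.4 and 105 TPM and Pvr at 68.3 and 75.5 TPM. Vsir, which encodes VISTA, stood at 35.4 and 37.3 TPM and Cd276, B7-H3, at 28.6 and 36.4 TPM. The costimulatory ligand Cd86 had 1 and 0 counts, Cd80 8 and 5 counts and Tnfsf9, the ligand of 4-1BB, 0 and 2 counts. Pdcd1lg2 had no row and was not analysed here. For natural killer cells, the NKG2D ligands Raet1e at 47.4 and 48.7 TPM, Raet1d at 43.4 and 43.9 TPM and Ulbp1 at 21.9 and 25.7 TPM were on, and the Raet1 genes are near-identical copies.

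Chemokine ligands showed few very high members and many silent ones. Of 37 listed 30 had a row, with 14 on (46.7%, against 67.1% of all protein-coding genes) and 10 silent. Ccl2, which draws monocytes, stood at 1724 and 1508 TPM. Its neighbour Ccl7, a ligand of the same receptor, stood at 964 and 821 TPM, and Cxcl1, which draws neutrophils, at 567 and 504 TPM. The next member, Ccl3, was far lower at 42.7 and 40.8 TPM. Cxcl10, which draws T cells through CXCR3, stood at 30.5 and 27.4 TPM. Ccl22, a ligand that draws regulatory T cells, had 0 and 0 counts. Of 62 cytokine ligands 52 had a row and 27 were on (51.9%), with Spp1 and Mif above all others. Csf1, the growth factor of macrophages, stood at 86.5 and 109 TPM, Csf3, that of neutrophils, at 69.3 and 68.5 TPM and Csf2, of both, at 28.7 and 23.8 TPM. Il6 stood at 51.0 and 44.9 TPM, Lif at 18.4 and 17.5 TPM, Il1a at 13.1 and 11.2 TPM and Tnf at 3.95 and 3.55 TPM. Tgfb1 stood at 78.4 and 88.5 TPM. Il10 had 0 and 1 counts, Il2 1 and 0 counts and Fasl 1 and 0 counts, and Il1b was intermediate with 2 and 5 counts.

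Of 50 interleukin and haematopoietic receptors 43 had a row and 23 were on (53.5%, against 67.1% of all protein-coding genes). Il13ra1 stood at 95.7 and 117 TPM, Il17rc at 78.4 and 80.0 TPM and Il17ra at 33.6 and 39.2 TPM, so both chains of the IL-17A receptor were on. Il1r1 stood at 37.1 and 45.7 TPM and its accessory chain Il1rap at 35.1 and 45.2 TPM. Il6st, the shared gp130 chain, stood at 30.0 and 49.8 TPM and Il6ra at 22.4 and 25.5 TPM, while Lifr had 1 and 5 counts. Of 27 members of the TNF receptor superfamily 23 had a row and 14 were on (60.9%, near the 67.1% over all). Tnfrsf1a, the main receptor of TNF, stood at 219 and 232 TPM, Tnfrsf1b at 161 and 185 TPM and Ltbr at 166 and 166 TPM. The death receptors Fas at 77.4 and 82.9 TPM and Tnfrsf10b, the TRAIL receptor, at 16.0 and 19.3 TPM were on. Tnfrsf9, which encodes 4-1BB, a receptor best known on T cells, stood at 76.4 and 81.0 TPM.

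The machinery behind the death receptors was on at 23 of 27 genes (85.2%, against 67.1% of all protein-coding genes). Casp8 stood at 45.4 and 47.5 TPM, Fadd at 11.5 and 11.8 TPM and Bid at 13.3 and 15.2 TPM. Both genes of necroptosis were on, with Ripk3 at 62.1 and 60.2 TPM and Mlkl at 163 and 171 TPM. Serpinb9, the inhibitor of granzyme B, stood at 21.96 and 27.1 TPM. Mcl1, which holds back the mitochondrial pathway, stood at 302 and 333 TPM, above Bcl2l1 at 79.5 and 81.4 TPM and Bcl2 at 4.81 and 6.13 TPM.

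Of 37 sensors of microbes and their adaptors 35 had a row and 24 were on (68.6%, near the 67.1% over all protein-coding genes). Aim2, a sensor of cytosolic DNA, led at 86.6 and 90.5 TPM, but Pycard, the adaptor ASC through which it recruits caspase-1, had 5 and 4 counts. Casp1 itself stood at 39.3 and 42.0 TPM and Gsdmd, gasdermin D, at 40.1 and 38.9 TPM. The cGAS-STING pair was on, with Cgas at 7.39 and 7.19 TPM and Tmem173, STING, at 60.4 and 64.1 TPM. So were the RNA sensors Ddx58, RIG-I, at 44.9 and 57.4 TPM and Ifih1, MDA5, at 10.6 and 12.9 TPM. Of the Toll-like receptors Tlr2 stood at 28.2 and 24.3 TPM, Tlr4 at 14.4 and 19.7 TPM and Tlr3 at 3.30 and 5.89 TPM, and Tlr1 had 2 and 0 counts and Tlr8 0 and 0 counts.

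Of 24 acute-phase and antimicrobial genes 20 had a row and 11 were on (55.0%, against 67.1% of all protein-coding genes). Of the 20, 4 were abundant, against 1717 of all 16389 protein-coding genes. Saa3, serum amyloid A3, stood at 499 and 384 TPM, Lcn2 next to it, Hp, haptoglobin, at 311 and 273 TPM and Slpi, an antiprotease, at 229 and 190.0 TPM. Saa1 had 4 and 3 counts, Camp 1 and 1 counts and Ngp 1 and 0 counts. Of 31 complement genes 26 had a row and 12 were on (46.15%). C3 led, followed by the proteases of the classical pathway C1s1 at 79.7 and 100.5 TPM and C1ra at 69.2 and 74.9 TPM. The chain of C1q with a row, C1qb, had 1 and 1 counts. Of the regulators Cfi had 0 and 0 counts and Cd55 0 and 1 counts. Cr1l, a membrane regulator of C3 cleavage in rodents, was on at 14.8 and 15.5 TPM, above Cd46 at 1.46 and 1.53 TPM, Cd59a at 1.23 and 1.99 TPM and Serping1 at 2.07 and 2.67 TPM.

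MALT1 is a scaffold and protease that joins CARD proteins and BCL10 to NF-kB, and its gene is the one added in the other groups. Of 24 genes of MALT1, its partners and NF-kB, 22 were on (91.7%, against 67.1% of all protein-coding genes). Malt1 stood at 6.66 and 9.54 TPM over a length of 11735 nt, among the lengths at which replicate 2 reads higher. Its partner Bcl10 stood at 59.8 and 58.6 TPM. Of the CARD scaffolds, Card10, the form of non-immune cells, stood at 15.4 and 19.1 TPM and Card14 at 1.16 and 1.91 TPM, while Card9, the myeloid form, had 2 and 1 counts. Of the NF-kB subunits Rela stood at 193 and 211 TPM, Nfkb1 at 51.8 and 60.8 TPM and Rel at 11.0 and 15.3 TPM. The inhibitor Nfkbia was highest at 801 and 753 TPM.

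Genes of embryonic patterning and of other tissues were read as families formed by symbol after values had been seen. Rhox5, an X-linked homeobox gene of the testis and placenta, stood at 1912 and 1648 TPM and ranked 60 of all protein-coding genes. Of 28 Hox genes with a row 11 were on, with the highest levels in the Hoxd cluster, Hoxd8 at 36.5 and 32.3 TPM, Hoxd10 at 35.6 and 28.8 TPM and Hoxd9 at 29.9 and 34.0 TPM, while Hoxd4 had 0 and 0 counts and Hoxd11 1 and 0 counts. Of 16 Wnt ligands 6 were on, with Wnt10b at 87.8 and 86.3 TPM and Wnt7b at 51.4 and 60.6 TPM well above Wnt5b at 7.18 and 6.72 TPM. Of 116 olfactory receptor genes 4 were on and 95 silent, and of 47 vomeronasal receptor genes 1 was on, against 67.1% of all protein-coding genes.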

How the data were processed

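RNA sequencing of E0771 cells was used as deposited. Per the labels' protocols, 1 µg of total RNA went into each directional library, read from both ends over 150 bases. The authors deposited whole-number counts per gene, not normalised, with a gene length and type beside them. The submitters' processing notes name featureCounts 1.6.3 and STAR 2.7.3a as well as Trim Galore 0.6.0, and build GRCm38.p6. Neither the strand setting nor the annotation release is given in the sources used here, so overlapping genes and near-identical copies are less certain. The deposited length equalled the union of exons in GENCODE M21 for 96.4% of protein-coding genes, which lowers the level of genes with long minor transcripts. Identifiers matched that release for 16384 of 16389 protein-coding genes without their version, and 25 symbols turned into dates were restored. Another 6 columns of per-sample values were not used.

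Only the 2 Vector columns of counts were read (2 of 6 libraries). TPM were computed from these counts and lengths over protein-coding genes (Python 3.11.15, pandas 2.3.3), with the SD over the pair of libraries beside each mean. RPKM and RPKM with TMM factors (edgeR 4.0.16 in R 4.3.3) were alternatives, with other denominators, thresholds and lengths and each library left out. With 1 group there is no comparison of groups and no p-value. Scripts were tested on simulated data. The members and gene lists were chosen with earlier results of these data known, and 13 of 51 lists were formed by symbol after values were seen. Genes were named by a rule: the 4 markers, the 25 most abundant genes, and from each list up to 8 of its highest members and any that was silent or had no row. Further genes (Hspg2, Mki67, Ftl1, Rhox5, Rps10, Rpl24 and members of a list below its 8 highest) were named after their values were seen. Not every gene picked by the rule is described. The promoters printed, from RefSeq, were also picked with their values known.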

Additional observations from a re-analysis of the deposited data

Results flagged for a closer look

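Rows that are not protein-coding stayed out of every level in the report, and a signal above the floor of 3 counts in both Vector libraries was found for 3554 of them. Only rows typed as lincRNA, antisense, processed transcript, sense intronic or bidirectional promoter lncRNA were ranked by level. Rows such as ribosomal RNA, microRNA and pseudogenes were not ranked. On the scale of the protein-coding TPM the highest of the ranked rows was Gm10076 with a mean of 1092 TPM. Below it came Cct6a with 629 TPM, 2410006H16Rik with 578 TPM, Gm26917 with 496 TPM and AI506816 with 371 TPM. Cct6a, which encodes a subunit of the chaperonin CCT and is known as a protein-coding gene, and Ifi30, the interferon-inducible lysosomal thiol reductase, at 251 and 203 TPM, are typed as processed transcripts in the deposited table and were therefore left out of the protein-coding genes. Each was counted in both libraries, and no control samples without T cells were analysed here.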

How the results depend on the processing

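No paired analysis was possible because 1 group was described and no groups were compared. The number of genes on lay between 9866 and 11566 over all settings, against 11000, and each library left out moved it to between 11157 and 11287. The scale moved absolute numbers most. With RPKM in place of TPM, 372 genes reached 100 instead of 1717, with or without TMM factors, and the median level of genes on was 8.41 in either case, instead of 29.2 TPM. That median was 26.6 TPM with all genes in the denominator. Silent genes numbered 1087 when silent meant 0 counts in both libraries, instead of 3210. The share of the 25 most abundant genes, 16.2 ± 0.515% (SD, n = 2), was 14.75% with all genes in the denominator, 13.9% without mitochondrially encoded genes, 14.0% with the longest transcript as length and 9.37% as CPM, with no length. Of these 25 genes, 16 remained with the longest transcript and 13 with no length. The longest-transcript setting was added after the data were seen. Over 29 named levels, the longest transcript changed the level by a ratio of 0.401 to 3.46, with a median of 0.758. That median includes the rescaling to the same total. The change was more than 1.5-fold for 4 genes, Fth1, Gapdh, Lcn2 and Fabp4. Leaving out a library changed none of the 29 by more than 1.5-fold. A count of 0 limits a level to 0.167 CPM per library.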

Other observations

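Among long non-coding RNAs, Malat1 stood at 184 and 234 TPM and Neat1, the scaffold of paraspeckles, at 67.5 and 70.8 TPM on the scale of the protein-coding genes. Xist, the RNA that silences an X chromosome, had 2 and 1 counts in this mouse line, and the Y-linked genes Ddx3y, Kdm5d, Uty and Eif2s3y had no row and were not analysed here. Of 2 protein-coding rows on the Y chromosome 1 was on, the predicted gene Gm47283 at 90784738 to 90816464 of Y, with 77.3 and 62.7 TPM. Whether its reads came from Y or from matching sequence on X was not tested. Genes of the X chromosome took 3.51% and 3.50% of TPM, with 333 of 535 on (62.2%, against 67.1% of all protein-coding genes). Among S100 genes, 9 of 16 with a row were on (56.25%). S100a6, which binds calcium, stood at 2823 and 2271 TPM. Of 26 heat shock and cyclophilin genes 22 were on (84.6%), and the 26 took 1.67% and 1.71% of TPM. The inducible chaperone Hspa1b stood at 15.6 and 16.4 TPM, while its near-identical copy Hspa1a had 0 and 0 counts.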
